A study of Homo sapiens with 12 samples.

Results

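The genes described here are those of the NRF2 pathway and the glutathione, thioredoxin and peroxidase systems, 48 named genes in all. They were chosen by gene symbol from pathway knowledge, with earlier results of these data known. All 48 were among the 23284 gene symbols listed in every library, and 43 of them were among the 12946 genes that reached an FPKM of 1 in at least 2 libraries and were tested. FPKM is the count of sequenced fragments scaled by transcript length and library size, so it can be compared between genes, but it carries no count and the sequencing depth of each library is unknown.

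PANC-1, a human pancreatic ductal carcinoma cell line, was infected with a retrovirus that encodes the green fluorescent protein ZsGreen joined to the degron of ornithine decarboxylase, so that the protein accumulates in cells with low proteasome activity. Degron (−) is the infected line itself, in which few cells were ZsGreen positive, and degron (++) is the brightest fraction of a population enriched from it by repeated sorting and culture, which the study used as a cancer stem cell model to look for genes that bear on radioresistance. By the study's account, both populations carry the reporter and derive from the same cell line. Their common origin was not tested here. Each was sequenced as bulk RNA without irradiation at 48 h, at 30 h with 4 Gy and at 48 h with 4 Gy, with 2 libraries per group, 6 per population and 12 in all. The 6 libraries taken here as degron (−) are ZsGreen negative in their titles but carry a d+ tag in another label field, and the titles were followed. The labels do not say from which event the hours were counted, and there was no unirradiated group at 30 h, so culture time and time after irradiation cannot be told apart. No label says that the 2 libraries of a group came from separate cultures, so the p-values measure the spread between libraries, which may be technical.

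NRF2, encoded by NFE2L2, is a transcription factor that KEAP1 holds in the cytoplasm and hands to the proteasome for degradation. Oxidants and electrophiles modify KEAP1, NRF2 then escapes and enters the nucleus, and with a small MAF partner it activates genes that carry an antioxidant response element. Its targets import cystine, make glutathione, reduce thioredoxin, supply NADPH and conjugate or reduce reactive compounds, and NRF2 activity is known for protecting tumour cells, those of pancreatic carcinoma included, from oxidants such as those that ionizing radiation produces.

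The libraries of a group correlated at r = 0.9815 to 0.9865 over log2(FPKM + 1), and each library resembled a library of its own population most. The sum of all FPKM ranged over 829654 to 916877 in the degron (++) libraries and 707273 to 763064 in the others, and the microRNA gene MIR622 held 28.6 to 30% and 22.5 to 27.1% of it. Keratins of ductal cells were abundant in both populations, with KRT8 at 2488 to 2981 FPKM in degron (++) and 1732 to 2118 in degron (−). KRT18 was at 2493 to 2889 and 1658 to 1962, and KRT19 at 816 to 951 and 667 to 774. Other epithelial markers lay further apart, with KRT7 at 1142 to 1437 and 133 to 273. EPCAM was at 176 to 205 and 29.9 to 52.8, and CDH1 at 62.8 to 66.6 and 6.56 to 12.8. VIM, which encodes vimentin, was at 13.2 to 19.2 in degron (++) and 2376 to 2711 in degron (−). None of the 5 acinar, 3 endocrine and 3 endothelial markers reached 1 FPKM in any library. The immune markers PTPRC and CD3E stayed under 1, and the macrophage and lysosome gene CD68 was at 2.91 to 4.62 and 124 to 165. Of 6 fibroblast markers COL1A2, COL3A1, PDGFRB and DCN stayed under 1, while the summed list was at 14.5 to 25.4 in degron (++), mostly LUM, and at 37.2 to 53.9 in degron (−), mostly COL1A1. In bulk RNA a smaller share of cells and less RNA per cell cannot be told apart.

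The 2 populations differed at most of these genes, in both directions. At 0 Gy 18 of the 43 members were higher in degron (++) and 17 were lower (limma, Benjamini-Hochberg adjusted p under 0.05). Among all 12946 genes 37.6% were called higher and 40.2% lower in this comparison, so the shares of members called, 41.9% and 39.5%, were near the background. At 30 h with 4 Gy 20 members were higher and 19 lower, 46.5% and 44.2%, beside a background of 38.3% and 40.8%. At 48 h with 4 Gy the counts were 17 and 19, 39.5% and 44.2%, beside 37.1% and 39.6%. The median size of the log2 difference was 0.67, 0.71 and 0.66 for the members in the 3 conditions and 0.51, 0.54 and 0.48 for all genes, while their signed medians were 0.04, 0.07 and 0.05 against -0.02, -0.02 and -0.01. The members were not matched to all genes by level, and the scale of log2(FPKM + 1) understates the change of low genes.

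A member counted as separated when it was called with 1 sign in all 3 conditions and no library of 1 population overlapped any of the other. Of the 43 members 16 were separated and higher in degron (++) and 17 were separated and lower, 37.2% and 39.5% beside 32.1% and 34.9% of all genes. The higher group held NQO1, SLC7A11, GSR, TXN, TXNRD1, SRXN1, TKT, AKR1C3, GPX1, PRDX1, PRDX2, PRDX6, GSTP1, GSTK1, MGST1 and MGST2. The lower group held NFE2L2, HMOX1, GCLC, TALDO1, GPX3, GPX4, PRDX3, PRDX4, SOD2, CAT, GSTT1, GSTM2, GSTM3, GSTA4, GSTO1, MGST3 and UGDH. Of these, AKR1C3 reached 1 FPKM in degron (++) alone and GPX3, GSTT1, GSTM2, GSTM3 and GSTA4 in degron (−) alone, so these 6 passed the filter only through the population where they were high and had to differ. Of all 12946 tested genes 445 reached 1 FPKM in degron (++) alone and 1021 in degron (−) alone. The shares of members and of all genes both include such genes and were not computed without them. KEAP1, GCLM, PGD and OSGIN1 were called in none of the 3 conditions, and GSS, ME1, PRDX5, SOD1, GSTM4 and EPHX1 in 1 or 2 of them. AKR1B10, AKR1C1, AKR1C2, GPX2 and GSTM1 stayed under the filter, with no value above 0.787 FPKM.

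The scale of the values bears on this split. When FPKM was rescaled to an equal sum in every library, as in TPM, the median log2 difference of all genes moved from -0.02, -0.02 and -0.01 to -0.21, -0.27 and -0.25, and the share of all calls that were higher in degron (++) moved from 48.3, 48.5 and 48.3% to 35.9, 33.3 and 31.7%. The members split 15 higher to 21 lower, 14 to 22 and 14 to 24 on that scale, and 12 and 20 were separated. PRDX1, GSTP1, GSTK1 and SRXN1 each lost the call in at least 1 condition on the TPM scale, and KEAP1, PGD, GCLM, GSS, EPHX1, SOD1 and PRDX5 gained a lower call in at least 1.

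**Figure D1:**
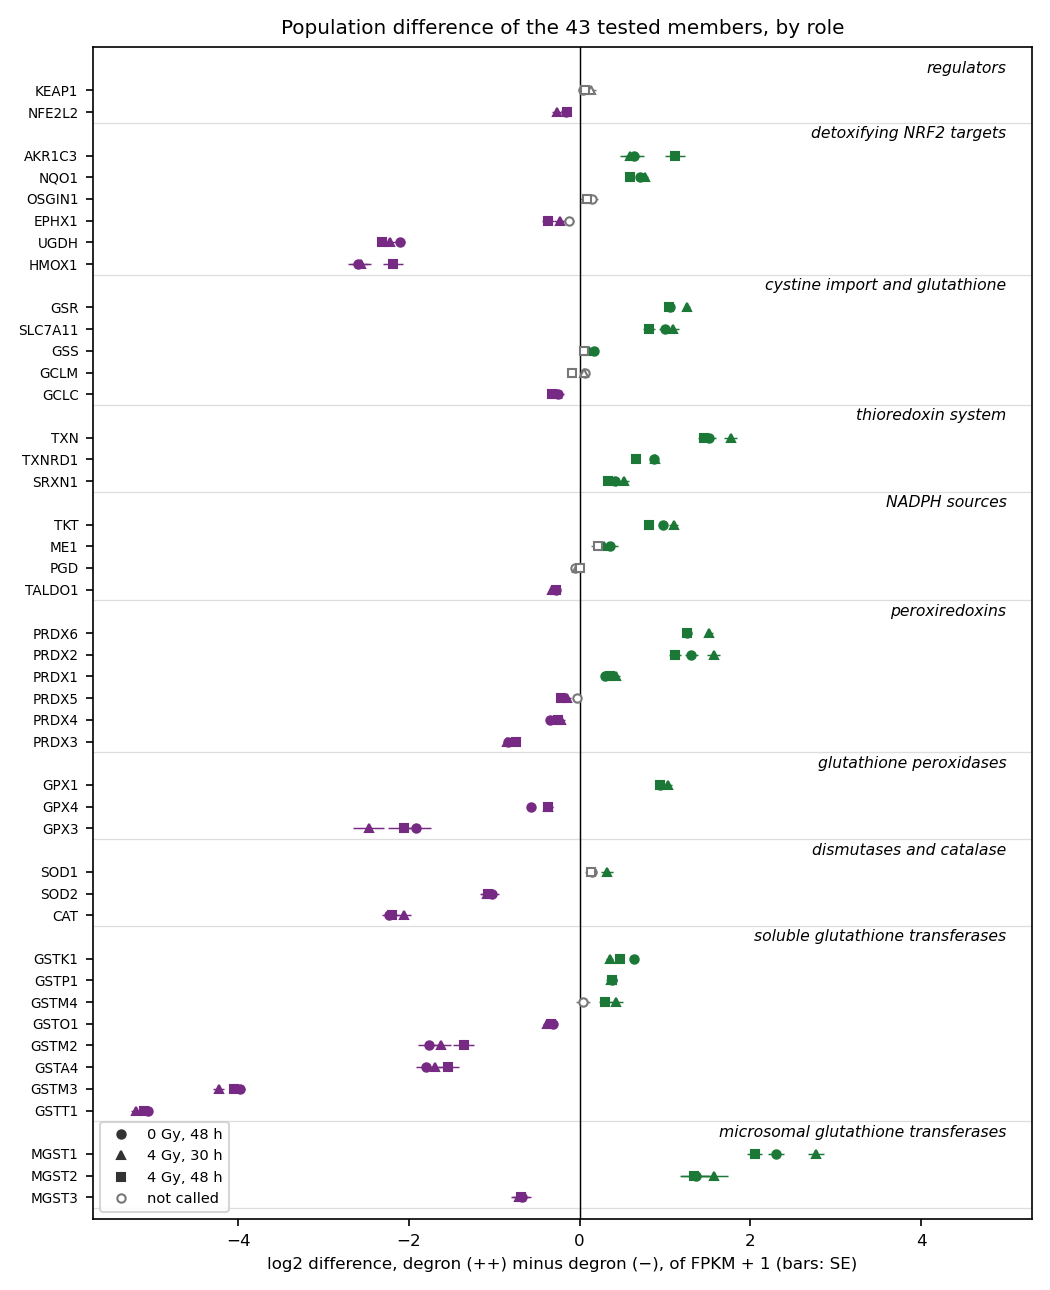
Log2 difference of FPKM + 1 between degron (++) and degron (−) (horizontal axis) for each of the 43 tested members (vertical axis), grouped by role, with 1 symbol per condition, bars for the SE, green for higher, purple for lower and open symbols for differences that were not called. Members of the same role lie on both sides of 0 in every role but the 3 genes of the thioredoxin system, which all lie to the right, and GSTT1 and GSTM3 lie farthest to the left.

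The regulators themselves differed little. NFE2L2 was at 49.8 and 47.9 FPKM in degron (++) at 0 Gy, 44.1 and 46.4 at 30 h with 4 Gy and 49.98 and 48.4 at 48 h with 4 Gy, and in degron (−) at 52.6 and 56.7, 56.0 and 53.8, and 56.4 and 53.1. All 6 degron (++) libraries were lower, by log2 differences of -0.16 (SE 0.051, adjusted p = 0.0181), -0.27 (0.000843) and -0.15 (0.0218). The call at 0 Gy was lost without the second library of either group (adjusted p = 0.0995 and 0.131), and that at 48 h with 4 Gy without the second degron (++) library or the first degron (−) library (0.103 and 0.138). KEAP1, the adaptor that targets NRF2 for ubiquitination, was at 51.4 and 49.9, 52.6 and 55.4, and 52.6 and 56.7 FPKM in degron (++) and at 51.1 and 47.7, 48.2 and 50.2, and 50.3 and 54.6 in degron (−). The populations overlapped over the 3 conditions pooled and KEAP1 was not called (differences of 0.04 to 0.13, adjusted p of 0.0607 to 0.585), although on the TPM scale it was called lower at 0 Gy (-0.17) and at 48 h with 4 Gy (-0.20). These are levels of mRNA, and NRF2 is regulated mostly through the stability of its protein, which was not measured here.

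The best known NRF2 targets went in opposite directions. NQO1, a quinone reductase, was at 129.6 and 125, 149.9 and 154, and 125 and 120.1 FPKM in degron (++) in the order of conditions above, and at 78.8 and 76.2, 91.2 and 87.4, and 81.7 and 81.0 in degron (−). Every degron (++) library was above every degron (−) library, and the mean was 1.62 times higher (log2 differences of 0.59 to 0.76, largest adjusted p = 7.5e-07). HMOX1, the heme oxygenase that turns heme into biliverdin, iron and carbon monoxide, was at 5.43 and 4.40, 5.16 and 6.94, and 6.66 and 7.01 FPKM in degron (++) and at 35.7 and 33.7, 41.2 and 39.3, and 35.8 and 33.7 in degron (−). Its mean was 6.16 times higher in degron (−), again without overlap (log2 differences of -2.60 to -2.19, largest adjusted p = 2.53e-07). UGDH, which makes the UDP-glucuronate used in conjugation, was at 6.67 and 7.20, 6.04 and 5.94, and 5.45 and 6.13 FPKM against 33.9 and 32.2, 31.4 and 31.9, and 32.6 and 32.7. It was thus 5.20 times higher in degron (−) (log2 differences of -2.31 to -2.10). OSGIN1, an oxidative stress induced growth inhibitor, was at 4.43 and 4.32, 5.23 and 5.101, and 5.72 and 5.79 FPKM in degron (++) and 3.80 and 3.90, 5.06 and 4.66, and 5.70 and 5.04 in degron (−). Within each condition the degron (++) pair was higher, but OSGIN1 was not called on the FPKM scale (largest difference 0.15, adjusted p = 0.0656). It was called higher in all 3 conditions under quantile normalization (0.19 to 0.24).

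Of the aldo-keto reductases in the list, AKR1C1, AKR1C2 and AKR1B10, which often mark strong NRF2 activity, were under the filter in both populations. AKR1C3 was at 0.510 and 0.889, 0.680 and 0.580, and 1.16 and 1.35 FPKM in degron (++) and at 0.083 and 0.086, 0.079 and 0.084, and 0 and 0.077 in degron (−). Its log2 differences were 0.59 to 1.12 and were called, but AKR1C3 reached 1 FPKM, and so was tested, through the 48 h 4 Gy libraries of degron (++) alone. Of the 50-base windows of its transcript 12.1% also occur in transcripts of other genes, first among them AKR1C2. EPHX1, a microsomal epoxide hydrolase, was at 15.6 to 18.6 FPKM in degron (++) and 17.7 to 22.9 in degron (−) and was called lower in both irradiated conditions, at 30 h not without the first degron (++) library (-0.20, adjusted p = 0.0602).

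**Figure D2:**
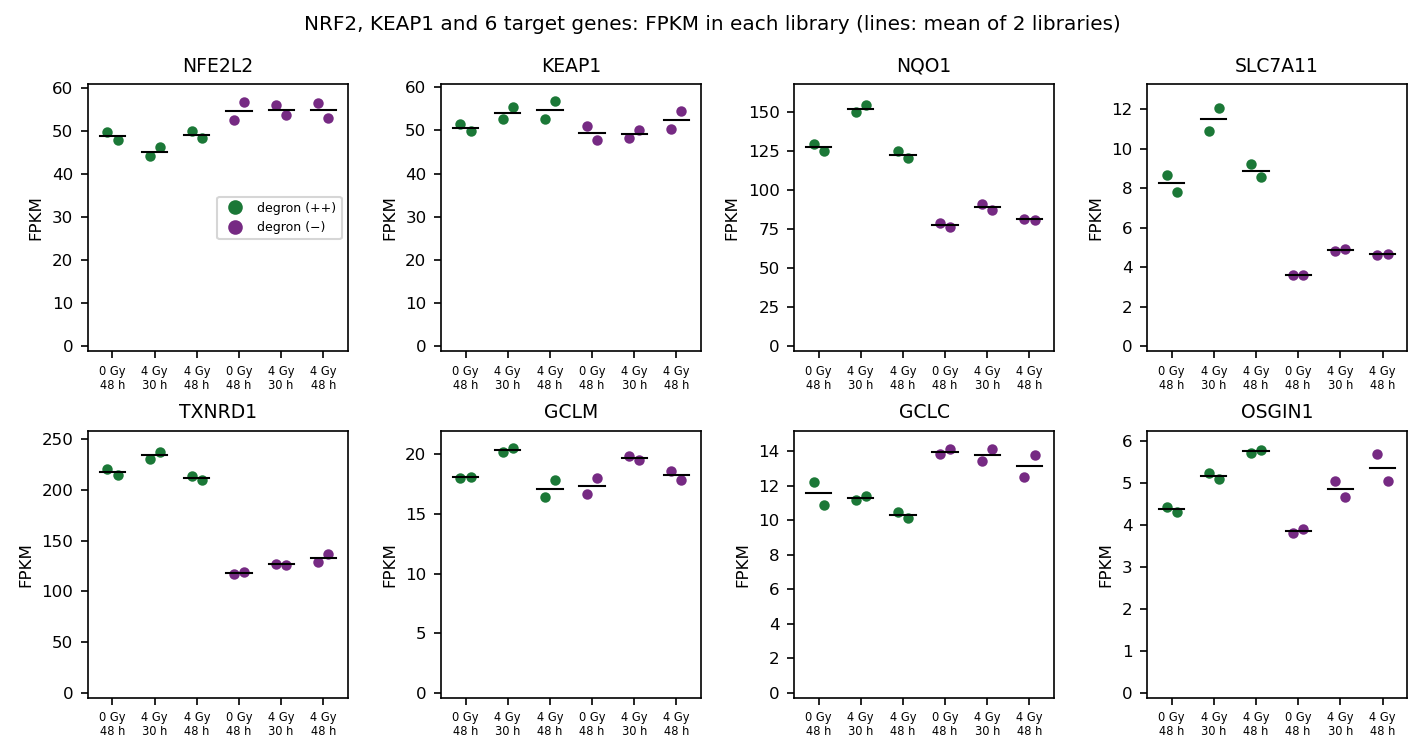
FPKM (vertical axis, from 0) of NFE2L2, KEAP1 and 6 NRF2 targets in each of the 12 libraries by population, dose and time (horizontal axis), with 1 point per library and lines at the mean of 2. NQO1, SLC7A11 and TXNRD1 are higher in degron (++) in every condition, GCLC is lower, and the points of KEAP1, GCLM and OSGIN1 overlap between populations when the 3 conditions are pooled.

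Glutathione is built from cysteine, which reaches the cell as cystine, through glutamate-cysteine ligase and glutathione synthetase. SLC7A11, the cystine importer, was at 8.68 and 7.82, 10.9 and 12.1, and 9.24 and 8.55 FPKM in degron (++) and at 3.64 and 3.59, 4.81 and 4.93, and 4.64 and 4.68 in degron (−). It was 2.18 times higher in degron (++) without overlap (log2 differences of 0.81 to 1.09, largest adjusted p = 5.37e-06). The 2 subunits of glutamate-cysteine ligase did not follow. GCLC, the catalytic subunit, was at 12.2 and 10.9, 11.2 and 11.4, and 10.5 and 10.2 FPKM against 13.8 and 14.1, 13.4 and 14.1, and 12.5 and 13.8, and was called lower in degron (++) in each condition (-0.32 to -0.25, largest adjusted p = 0.00548). GCLM, the modifier subunit, was at 17.98 and 18.1, 20.2 and 20.5, and 16.4 and 17.8 FPKM against 16.7 and 17.97, 19.8 and 19.5, and 18.6 and 17.9. Its populations overlapped over the 3 conditions pooled, with differences of -0.09 to 0.06 (adjusted p of 0.153 to 0.408). GSS, glutathione synthetase, was at 46.3 to 49.8 and 42.1 to 47.7 FPKM, and its small difference was called higher at 0 Gy (0.17) and at 30 h with 4 Gy (0.11) but reversed on the TPM scale (-0.04 and -0.17). The call at 30 h was also lost without any 1 of the 4 libraries compared (adjusted p of 0.0576 to 0.138). GSR, the reductase that regenerates glutathione with NADPH, was at 39.5 and 38.0, 38.7 and 38.2, and 38.0 and 38.9 FPKM in degron (++) and 18.3 and 17.9, 15.4 and 15.6, and 18.1 and 17.9 in degron (−). It was 2.24 times higher in degron (++) without overlap (log2 differences of 1.05 to 1.26, largest adjusted p = 1.51e-08).

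The thioredoxin system reduces disulfides in parallel to glutathione, and its 3 members were all separated and higher in degron (++), as were 32.1% of all genes. TXN, thioredoxin, was at 528 and 539, 623 and 626, and 576 and 558 FPKM in degron (++) and at 198 and 173, 176 and 189, and 192 and 221 in degron (−), a ratio of 3.0. TXNRD1, the selenoenzyme that reduces it, was at 220.2 and 215, 231 and 237, and 213 and 209 FPKM against 118 and 119, 127 and 126, and 129 and 137, a ratio of 1.75. Neither gene overlapped between populations (log2 differences of 1.46 to 1.77 and of 0.66 to 0.88). SRXN1, sulfiredoxin, which repairs overoxidized peroxiredoxins, was at 69.1 and 67.2, 76.8 and 74.4, and 70.0 and 71.2 FPKM against 48.0 and 53.9, 51.0 and 53.7, and 55.1 and 57.2, and its difference of 0.33 at 48 h with 4 Gy was 0.06 (adjusted p = 0.456) on the TPM scale. Of the 50-base windows of the SRXN1 transcript 84.7% also occur in a transcript annotated to another gene, AL121758.1, so that its level depends on how fragments were assigned.

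Both systems draw on NADPH. TKT, transketolase of the nonoxidative pentose phosphate pathway, was at 300.3 and 314, 314 and 300.0, and 286 and 299 FPKM in degron (++) and at 162 and 148, 142 and 143, and 165 and 167 in degron (−), a ratio of 1.95 without overlap (log2 differences of 0.81 to 1.10). TALDO1, transaldolase of the same branch, was the other way around, at 156 to 165 FPKM against 189.7 to 204 (-0.32 to -0.28, largest adjusted p = 0.00017). PGD, of the oxidative branch, was at 117 to 127 and 122 to 128 FPKM and was not called, and ME1, the cytosolic malic enzyme, at 10.4 to 13.2 and 7.90 to 10.1 FPKM, was called higher at 0 Gy (0.36) and at 30 h with 4 Gy (0.29) but not at 48 h with 4 Gy. The ME1 call at 30 h was lost without the second degron (++) library (0.15, adjusted p = 0.127) or the second degron (−) library (0.21, 0.113). On the TPM scale PGD was called lower in all 3 conditions (-0.32 to -0.26) and ME1 in none.

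Among the peroxiredoxins, which reduce hydrogen peroxide with electrons from thioredoxin or, for PRDX6, glutathione, 3 of 6 were separated and higher in degron (++) and 2 were separated and lower. Of all genes 32.1% and 34.9% were so separated. PRDX6 was at 402 and 414, 463 and 465, and 459.9 and 456 FPKM in degron (++) and at 172 and 168, 161 and 160.3, and 182 and 198 in degron (−), a ratio of 2.55. PRDX2 was at 205 and 199, 226 and 225, and 203 and 221 FPKM against 79.9 and 82.1, 72.9 and 77.2, and 89.4 and 106, a ratio of 2.52. Both were without overlap, with log2 differences of 1.26 to 1.52 and of 1.12 to 1.57. PRDX1, the most abundant of the 6, was at 830.4 to 994 FPKM against 697 to 752, and its difference of 0.30 to 0.43 fell to between -0.02 and 0.07 under quantile normalization, where it was called in no condition. PRDX3, the mitochondrial member, was at 146 to 153 FPKM against 253 to 277 (-0.85 to -0.75), and PRDX4, of the endoplasmic reticulum, at 132 to 152 against 165 to 177 (-0.35 to -0.22). PRDX5 was at 353 to 406 and 407 to 435 FPKM, called lower in the irradiated conditions alone on the FPKM scale (at 30 h not without the second library of either population, -0.12 and -0.13) and in all 3 on the TPM scale. Summed over the 6 genes, peroxiredoxin mRNA had group means of 2161 to 2367 FPKM in degron (++) and 1806 to 1884 in degron (−).

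The glutathione peroxidases split as well. GPX1, the cytosolic and mitochondrial enzyme, was at 249 to 280.3 FPKM in degron (++) and 132 to 135 in degron (−) (log2 differences of 0.94 to 1.04, largest adjusted p = 4.44e-08), with 21.5% of its 50-base windows shared with the pseudogenes GPX1P1 and GPX1P2. GPX4, which reduces lipid hydroperoxides in membranes and guards against ferroptosis, was at 260.2 to 296 FPKM against 348 to 406 (-0.57 to -0.37, largest adjusted p = 0.00017). GPX3, the secreted enzyme, was at 0.434 and 0.106, 0.621 and 0.433, and 0.741 and 0.320 FPKM in degron (++) and 3.29 and 4.29, 7.27 and 7.66, and 5.99 and 4.68 in degron (−), 12.5 times higher in the latter. Both of these were therefore lower in degron (++) while GPX1 was higher, in every condition and library. GPX3 passed the filter through degron (−) alone and so had to differ.

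The dismutases turn superoxide into hydrogen peroxide, and catalase decomposes the latter. CAT was at 7.74 and 8.56, 9.68 and 7.68, and 8.59 and 8.24 FPKM in degron (++) and at 41.8 and 41.7, 39.3 and 38.9, and 42.7 and 41.9 in degron (−), 4.88 times higher in the latter (log2 differences of -2.23 to -2.06, largest adjusted p = 3.77e-08). SOD2, of the mitochondrial matrix, was at 35.0 and 28.4, 32.2 and 34.2, and 34.7 and 30.9 FPKM against 63.1 and 67.9, 71.5 and 71.2, and 70.3 and 69.2, 2.12 times higher in degron (−) (-1.08 to -1.03). SOD1, of the cytosol, was at 291 to 374 FPKM against 273 to 306 and was called higher at 30 h with 4 Gy alone (0.32), a call that the TPM scale did not keep (0.04).

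Of the 12 glutathione transferases in the list, which couple glutathione to electrophiles, 11 were tested, and 4 were separated and higher in degron (++) and 6 separated and lower. Among all genes 32.1% were separated and higher and 34.9% separated and lower. GSTT1 was listed at 0 in all 6 degron (++) libraries and was at 31.5 and 33.1, 36.1 and 35.3, and 34.3 and 32.5 FPKM in degron (−). GSTM3 was listed at 0 in the same 6 libraries and was at 15.3 and 14.3, 17.3 and 18.3, and 15.3 and 15.9 FPKM in degron (−). GSTA4 was listed at 0 in 5 degron (++) libraries and at 0.073 in the sixth, against 2.03 and 3.02, 2.16 and 2.28, and 2.07 and 1.96 FPKM. GSTM2 was at 0.170 and 0.165, 0 and 0.169, and 0.356 and 0.167 FPKM against 2.65 and 3.35, 2.54 and 2.18, and 2.15 and 2.31. No fold is given for these 4 genes because of the values at 0. These 4 of the 6 lower transferases were called in each condition. They passed the filter through degron (−) alone, so they had to differ and their calls add no support. GSTM2 shared 48.6% of its 50-base windows with GSTM1, GSTM4 and other relatives.

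GSTM3 and GSTM2 lie in 1 cluster, where RefSeq orders the genes as GSTM4, GSTM2, GSTM1, GSTM5 and GSTM3. GSTM4 was at 17.6 to 23.8 FPKM in degron (++) and 15.9 to 18.2 in degron (−), GSTM1 at 0.272 to 0.691 and 0.253 to 0.787, and GSTM5 was listed at 0 in all 12 libraries, so that the levels of GSTM1 and GSTM5 were too low to show a difference. Beyond GSTM3 and EPS8L3, which was near 0, CSF1 was at 11.7 to 12.9 FPKM against 39.3 to 47.7 without overlap, likewise lower in degron (++), while AMPD2, on the GSTM4 side, was at 17.7 to 20.9 against 15.9 to 19.1. GSTM4 was called higher in both irradiated conditions (0.43 and 0.30, the latter not without the second library of either population, 0.21 and 0.24) but not at 0 Gy (0.04), and on the TPM scale in none, and 11.7% of its windows are shared with its relatives. The abundant GSTP1, whose protein also binds stress kinases, was at 752 to 869 FPKM against 572 to 654 (0.37 to 0.38), although under quantile normalization its difference at 30 h with 4 Gy was -0.00 and that at 48 h with 4 Gy was 0.05, neither called. GSTO1, of the omega class, was at 112 to 123 FPKM against 141 to 155 (-0.38 to -0.31). GSTK1, a glutathione transferase of mitochondria and peroxisomes, was higher in degron (++) at 109 to 134 FPKM against 82.7 to 90.8 (0.35 to 0.64), although on the TPM scale it was not called at 30 h with 4 Gy (0.07).

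The microsomal transferases are membrane proteins of another family. MGST1, which also reduces lipid hydroperoxides, was at 405 and 414, 419 and 451, and 441 and 417 FPKM in degron (++) and at 88.0 and 77.3, 58.2 and 68.1, and 96.5 and 109 in degron (−). Its ratio of 5.12 was the largest among the members higher in degron (++) and above the filter in both populations (log2 differences of 2.05 to 2.77, largest adjusted p = 7.69e-08). MGST2 was at 21.0 and 20.4, 18.3 and 19.5, and 22.3 and 21.4 FPKM against 6.63 and 8.40, 4.70 and 6.86, and 9.36 and 6.86, a ratio of 2.87. MGST3 was lower in degron (++), at 16.3 to 19.6 FPKM against 26.8 to 33.3 (-0.71 to -0.67). The family thus held 2 members separated upward and 1 downward, beside 32.1% and 34.9% of all genes.

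**Figure D3:**
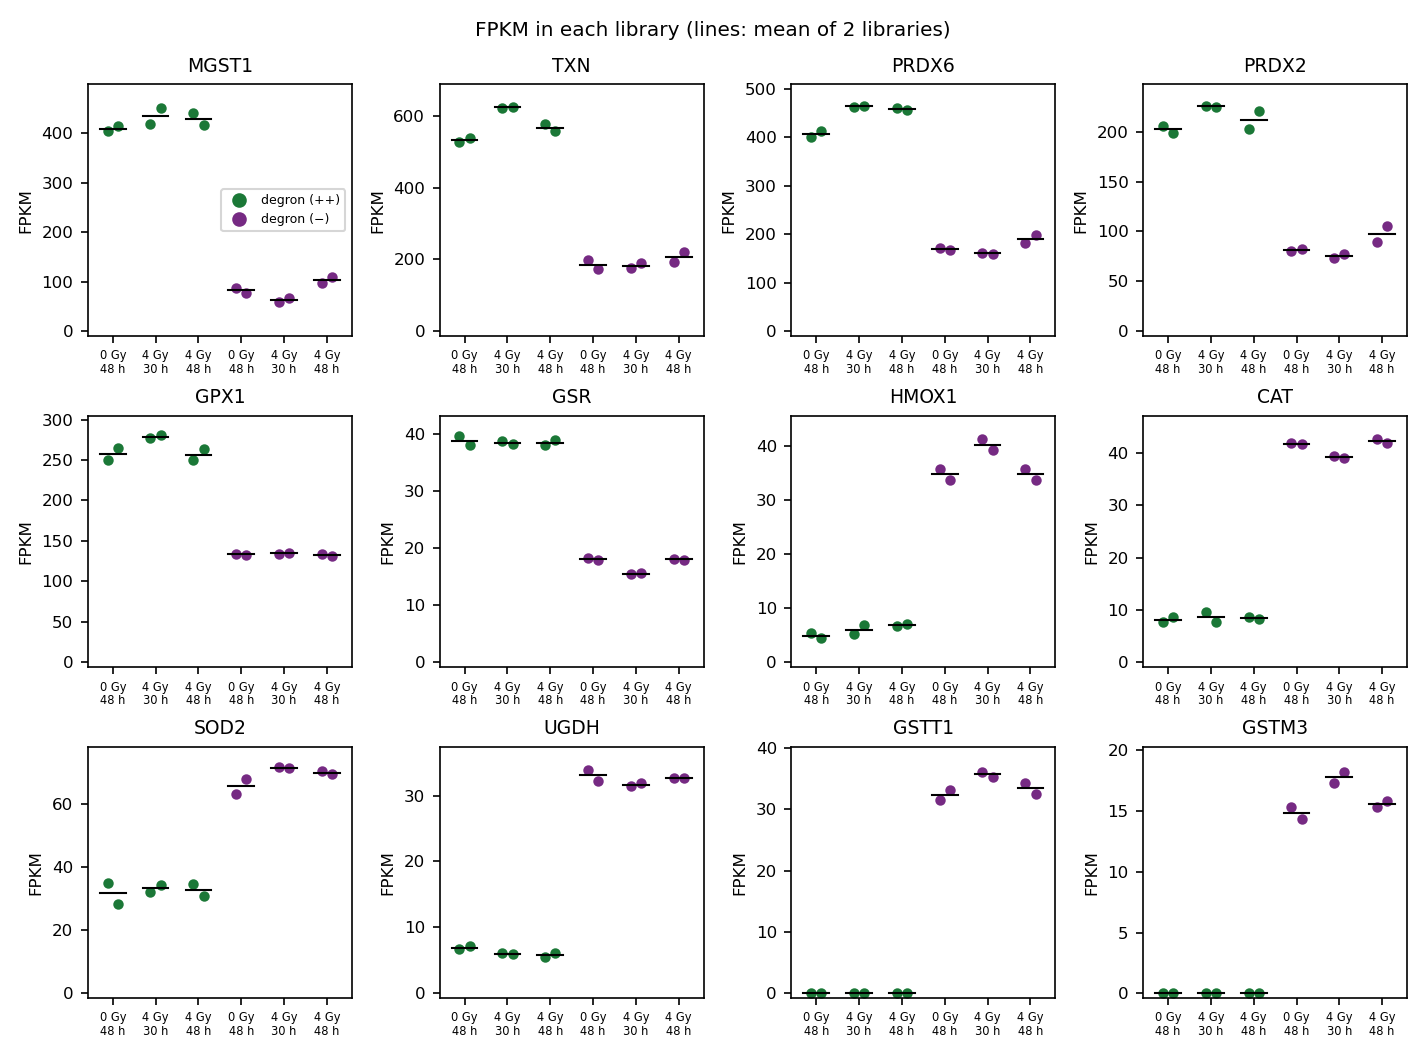
FPKM (vertical axes, from 0) in each of the 12 libraries by population, dose and time (horizontal axes), with 1 point per library and lines at the mean of 2, for 6 members higher and 6 lower in degron (++). In every panel the populations are apart in all 3 conditions, and GSTT1 and GSTM3 are listed at 0 in all 6 degron (++) libraries.

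NRF2 acts through the antioxidant response element, whose core reads TGACNNNGC. MGST1, TXNRD1 and GSTP1, all higher in degron (++), were chosen with a window that holds a match. GSTM3, which was lower, has none, while the lower members GSTA4 and GSTO1 had a match and are not shown. The choice therefore cannot tell whether matches go with direction. The start-site windows of MGST1, TXNRD1, GSTP1 and GSTM3 are shown here. They were taken from RefSeq on GRCh38.p14 and run from 250 bases before to 50 bases after an annotated start, 5′ to 3′ on the gene's strand, with matches of the core on either strand in capitals. MGST1 lies on the plus strand at chr12:16346865-16347164, TXNRD1 on the plus strand at chr12:104215529-104215828, GSTP1 on the plus strand at chr11:67583562-67583861 and GSTM3 on the minus strand at chr1:109740989-109741288.
MGST1: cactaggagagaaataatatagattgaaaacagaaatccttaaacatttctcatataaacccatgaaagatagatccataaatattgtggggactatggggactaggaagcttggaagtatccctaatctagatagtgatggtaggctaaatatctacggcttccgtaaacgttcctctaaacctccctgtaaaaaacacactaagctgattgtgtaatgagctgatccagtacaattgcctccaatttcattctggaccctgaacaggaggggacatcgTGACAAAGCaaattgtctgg
TXNRD1: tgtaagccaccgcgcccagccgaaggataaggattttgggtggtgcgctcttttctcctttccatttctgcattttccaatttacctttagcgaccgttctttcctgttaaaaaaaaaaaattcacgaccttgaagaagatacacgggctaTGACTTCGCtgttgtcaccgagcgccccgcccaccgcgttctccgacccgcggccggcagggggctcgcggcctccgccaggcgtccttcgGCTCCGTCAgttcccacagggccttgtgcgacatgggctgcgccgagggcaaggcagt
GSTP1: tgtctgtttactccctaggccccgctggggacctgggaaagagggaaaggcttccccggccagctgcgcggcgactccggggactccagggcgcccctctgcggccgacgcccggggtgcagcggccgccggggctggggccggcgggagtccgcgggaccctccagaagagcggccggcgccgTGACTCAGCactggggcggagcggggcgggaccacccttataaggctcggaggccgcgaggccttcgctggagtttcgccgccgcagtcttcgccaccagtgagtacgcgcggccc
GSTM3: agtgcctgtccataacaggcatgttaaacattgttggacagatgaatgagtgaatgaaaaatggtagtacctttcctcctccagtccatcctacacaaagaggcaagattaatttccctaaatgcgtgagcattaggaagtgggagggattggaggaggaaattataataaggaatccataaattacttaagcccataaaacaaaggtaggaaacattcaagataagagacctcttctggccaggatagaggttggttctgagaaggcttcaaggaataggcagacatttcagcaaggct
Counted from the start, the match in the MGST1 window begins at 30 and reads TGACAAAGC, and this window was taken from the 3 of the gene because the others hold none. Those in the TXNRD1 window begin at -99 and -8, the second on the opposite strand, and read TGACTTCGC and TGACGGAGC. That in the GSTP1 window begins at -66 and reads TGACTCAGC, which also holds the letters TGACTCA of an AP-1 site. The GSTM3 window holds none.

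The core was found in 13.3% of all 35116 windows of this length and in at least 1 window of 19.5% of the tested genes that had one. Windows were at hand for 38 of the 48 members, and 12 of these had a match, EPHX1, GCLM, GPX2, GSTA4, GSTM1, GSTO1, GSTP1, KEAP1, ME1, MGST1, PGD and TXNRD1. Among the separated members with a window, 3 of 11 higher ones had a match, GSTP1, MGST1 and TXNRD1, and 2 of 15 lower ones, GSTA4 and GSTO1. No window was at hand for AKR1B10, GSTT1, SLC7A11, HMOX1, GSR, PRDX1, GSS, PRDX6, SOD1 and MGST2. A match in these letters is a description of the window and not a site of binding.

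The response to 4 Gy at 48 h was small beside the population differences. In degron (++) 1 of 43 members was called higher after irradiation and 0 lower, where 1.42% and 0.402% of all genes were called. In degron (−) 3 were called higher and 0 lower, beside 3.85% and 0.873% of all genes. The median size of the members' differences was 0.07 and 0.09, and 0.08 and 0.09 over all genes. At an unadjusted p under 0.05 the members numbered 9 and 12 of 43, larger shares than the 17.6% and 20.9% of all genes.

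OSGIN1 was the member called in both populations. Its levels given above went from 4.43 and 4.32 at 0 Gy to 5.72 and 5.79 FPKM at 4 Gy in degron (++), a log2 difference of 0.33 (SE 0.066, adjusted p = 0.0491), and from 3.80 and 3.90 to 5.70 and 5.04 in degron (−), a difference of 0.39 (SE 0.066, adjusted p = 0.0157). The irradiated pair was above the unirradiated pair in each population. The call in degron (++) was lost when any 1 of the 12 libraries was left out, and that in degron (−) without the first 4 Gy library (0.32) or either 0 Gy library (0.38 and 0.41). In degron (−) SLC7A11 rose from 3.64 and 3.59 to 4.64 and 4.68 FPKM (0.29, SE 0.069, adjusted p = 0.0493) and TXNRD1 from 118 and 119 to 129 and 137 FPKM (0.17, SE 0.035, adjusted p = 0.0301). SLC7A11 lost its call when any 1 library was left out, and TXNRD1 when either 30 h library, either 0 Gy library or the second 48 h 4 Gy library of degron (−) was left out. In degron (++) the same genes differed by 0.10 and -0.04 (adjusted p = 0.518 and 0.603).

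No member was called as differing between populations in its response to 4 Gy by the test of the difference itself, where 0.0232% and 0.0541% of all genes were called with a larger and a smaller value in degron (++) (limma, 0 members called). At an unadjusted p under 0.05 there were 11 of 43 members, a larger share than the 13.6% of all genes. TXNRD1 came nearest, with a difference of -0.21 (SE 0.049, adjusted p = 0.134). HMOX1 had a dose difference of 0.41 in degron (++) and 0.00 in degron (−), neither called (adjusted p = 0.123 and 0.999), and their difference was not called either (adjusted p = 0.333).

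Between 30 h and 48 h at 4 Gy, 1 member was called in degron (++) and 5 in degron (−). In degron (++) NQO1 fell from 149.9 and 154 to 125 and 120.1 FPKM (-0.31, SE 0.037, adjusted p = 0.0118), and 0.657% of all genes were called higher and 0.548% lower at 48 h. NQO1 lost this call without either 30 h library or the second 48 h library of degron (++) (-0.33, -0.29 and -0.28). In degron (−) GSR, TKT, PRDX2, PRDX6 and MGST1 were higher at 48 h, 11.6% of the members beside 6.01% of all genes, and none was lower, beside 1.17%. Where a comparison of dose and one of time were made in the same population they shared the 48 h 4 Gy libraries.

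In degron (−) MGST1 rose the most, from 58.2 and 68.1 to 96.5 and 109 FPKM (0.70, SE 0.091, adjusted p = 0.00299). PRDX2 rose from 72.9 and 77.2 to 89.4 and 106 FPKM (0.37, SE 0.073, adjusted p = 0.021), and PRDX6 from 161 and 160.3 to 182 and 198 (0.24, SE 0.040, adjusted p = 0.0095). In each of the 5 genes the 48 h pair lay above the 30 h pair. GSR rose from 15.4 and 15.6 to 18.1 and 17.9 FPKM (0.20, SE 0.036, adjusted p = 0.0116) and TKT from 142 and 143 to 165 and 167 (0.22, SE 0.048, adjusted p = 0.031). The unirradiated degron (−) libraries at 48 h lay between the 2 irradiated pairs for MGST1, PRDX2, PRDX6 and TKT. For TKT the difference by dose was 0.09. For GSR it was -0.00, and the unirradiated pair at 48 h overlapped the irradiated pair at 48 h. When libraries of the 2 compared groups were left out in turn, MGST1 kept its call (0.59 to 0.81), whereas GSR, TKT, PRDX2 and PRDX6 lost theirs, except that PRDX2 (0.49) and PRDX6 (0.30) kept it without the first 48 h library.

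All 5 genes were among those higher in degron (++), and so moved toward its level. Nearly all genes did the same, 891 of the 908 called both at 0 Gy and by time in degron (−). Of the 35 members called between populations at 0 Gy, 28 had a time difference in degron (−) with the sign toward degron (++), 80%, and of all 10062 genes so called 78.3% did. In degron (++) the shares with that same sign were 42.9% of the members and 50% of all genes. Genes outside the list that mark the populations moved with them. CDKN2A, CDKN2B and MTAP, which lie side by side in the genome, were at 12.4 and 11.0, 0.907 and 1.07, and 2.83 and 3.28 FPKM in degron (−) at 30 h and at 21.1 and 19.1, 2.14 and 2.83, and 5.001 and 4.87 at 48 h with 4 Gy, while CDKN2A was at 100.4 to 112 in degron (++). Of the 7 markers of the line, KRT7 went from 133 and 144 to 233 and 273 FPKM, EPCAM from 29.9 and 31.9 to 44.8 and 52.8, CDH1 from 6.56 and 6.79 to 11.7 and 12.8 and VIM from 2709 and 2711 to 2529 and 2376, and KRT8, KRT18 and KRT19 also had higher 48 h pairs. The share of summed FPKM held by MIR622 went from 22.5 and 23.3% to 25.5 and 27.1%. The part of any of these in the members' time differences was not tested.

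The time differences of the populations were compared directly. MGST1 differed by -0.72 (SE 0.129, adjusted p = 0.0267), from a time difference of -0.02 in degron (++) and 0.70 in degron (−), and PRDX6 by -0.26 (SE 0.057, adjusted p = 0.0476), from -0.02 and 0.24. These were 2 of 43 members, both with a smaller value in degron (++), where 0.51% of all genes were called with a larger and 2.72% with a smaller value. MGST1 lost this call without 8 of the 12 libraries in turn (adjusted p of 0.0518 to 0.092, all 6 of degron (++), and the first 30 h and second 48 h 4 Gy libraries of degron (−)), and PRDX6 without any library but the first 48 h 4 Gy library of degron (−).

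**Figure D4:**
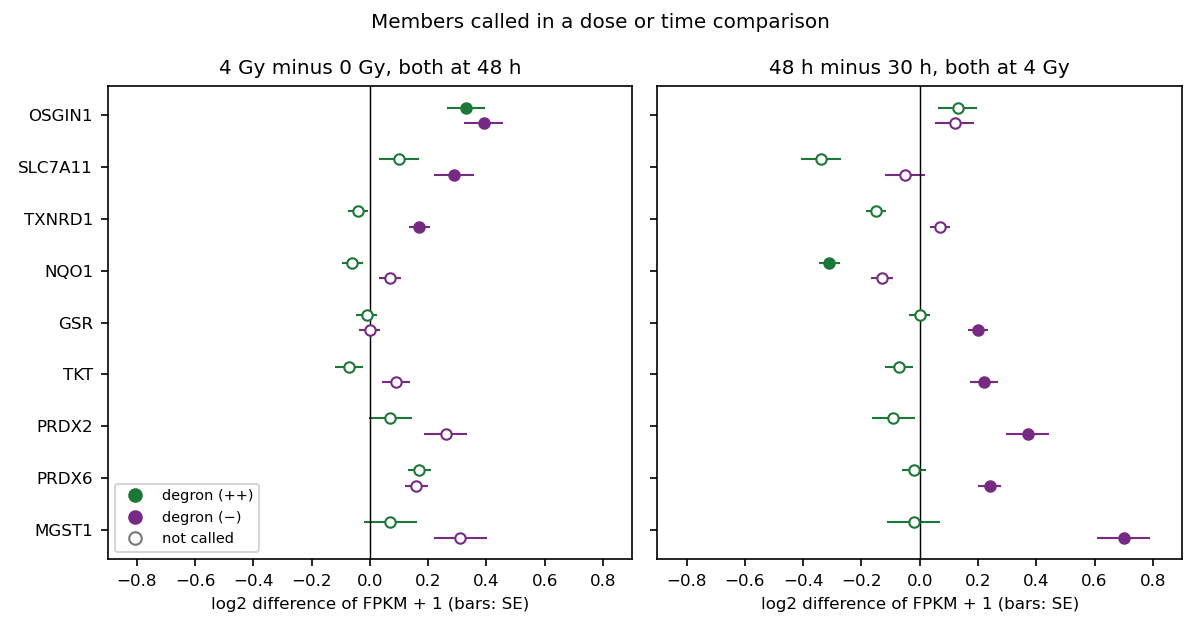
Log2 difference of FPKM + 1 (horizontal axes) between 4 Gy and 0 Gy at 48 h and between 48 h and 30 h at 4 Gy for the 9 members called in either comparison (vertical axis), by population, with bars for the SE and open points for differences that were not called. OSGIN1 is called in both populations by dose, and GSR, TKT, PRDX2, PRDX6 and MGST1 are called by time in degron (−) and lie near 0 in degron (++).

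Other genes of these pathways were taken as 77 further names, of which 65 were tested. In the 3 conditions, in the order above, 29, 29 and 25 were called higher in degron (++) and 32, 31 and 32 lower, beside 37.6, 38.3 and 37.1% and 40.2, 40.8 and 39.6% of all genes. Of those 65, 22 were separated and higher in degron (++) and 30 separated and lower, beside 32.1% and 34.9% of all genes, and CYP4F11, GGT7, GPX7 and ME2 reached 1 FPKM in 1 population alone. NRF2 partners and regulators had 2 higher and 6 lower of 9. MAFF, a small MAF protein, was at 28.4 to 37.9 FPKM against 8.59 to 16.2, and BACH1, a repressor of HMOX1 and other targets, at 6.34 to 7.96 against 3.79 to 5.40, both higher in degron (++). MAFK, MAFG, NFE2L1, NFE2L3, CUL3, the ubiquitin ligase scaffold that works with KEAP1, and SQSTM1, the autophagy receptor that sequesters KEAP1, were lower, SQSTM1 at 174 to 227 FPKM against 349 to 454. Further NRF2 targets had 7 higher and 4 lower of 14 tested, the thioredoxin and glutaredoxin system 5 and 3 of 11, sources of NADPH 2 and 6 of 11, glutathione synthesis and breakdown 5 and 5 of 11, and other peroxidases and transferases 1 and 6 of 9.

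Of these genes the largest rises by mean log2 difference were PTGES (2.88), a glutathione-dependent prostaglandin E synthase of the same family as MGST1, CTH (2.61) and TRIM16 (1.88), and the largest falls were CBS (-4.34), GPX7 (-3.81, listed at 0 in all 6 degron (++) libraries) and ABCC1 (-3.23), an exporter of glutathione conjugates. CBS and CTH catalyse successive steps from homocysteine to cysteine. CBS was at 0.597 to 1.21 FPKM in degron (++) and 30.4 to 39.9 in degron (−), and CTH at 27.9 to 31.6 and 2.67 to 5.81. SLC3A2, the heavy chain that carries SLC7A11 to the membrane, was at 343 to 448 FPKM against 152 to 183, higher in degron (++) like its partner.

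By dose 4 of these 65 genes were called higher and 3 lower at 4 Gy in degron (++), and 7 higher and 2 lower in degron (−), beside 1.42% and 0.402%, and 3.85% and 0.873%, of all genes. SQSTM1 and AKR1B1, an aldose reductase, were higher and the NADPH-producing dehydrogenases H6PD and IDH1 lower in both populations. From 30 h to 48 h 0 were called higher and 4 lower in degron (++) (FTH1, MTHFD2, SLC3A2 and GSTO2), and 7 higher (MAFF, AKR1B1, CBR1, TRIM16, SLC3A2, CTH and PTGES) and 2 lower (FTH1 and GPX7) in degron (−), beside 0.657% and 0.548%, and 6.01% and 1.17%, of all genes. The difference in dose response between populations was called for 0 of them and that in time for 8, all with a smaller value in degron (++), beside 2.72% of all genes.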

How the data were processed

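Libraries of bulk RNA from PANC-1 cells that carry the reporter were deposited by the authors as FPKM values per gene, made, according to the submitters' processing notes, with TopHat2 2.1.1, Bowtie2 2.2.8, SAMtools 0.1.18 and Cuffdiff 2.2.1 on hg19. The notes assign no role or setting to these tools, FPKM holds no counts, and the depth and its precision are therefore unknown. Samples were grouped by the population, dose and time in their titles, with 2 libraries in each of 6 groups.

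Genes that reached 1 FPKM in 2 or more libraries (12946 of 23284) were analysed as log2(FPKM + 1), a scale that understates the change of low genes. One model of 6 group means over the 12 libraries was fitted with limma 3.58.1 (R 4.3.3, eBayes with a trend), and populations were compared within each dose and time, doses within a population at 48 h, times within a population at 4 Gy, and the dose and time differences between populations. P-values are two-sided and Benjamini-Hochberg adjusted over all tested genes, with a threshold of 0.05. SE is that of the fitted log2 difference. Ratios are of mean FPKM over the 6 libraries of each population. Tables and figures were made with Python 3.11.15, numpy 2.4.6, pandas 2.3.3 and matplotlib 3.10.9.

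The procedure was tested on simulated data with 200 of 12946 genes changed. Log2 changes of 0.5 and 1 were recovered for 70.5% and 96% of genes in the population comparison at 0 Gy, 73% and 95.5% for the dose in degron (++), and 43.5% and 90% for the difference in dose response between populations. False calls numbered 11 and 9, 6 and 7, and 1 and 6. The data held far more population differences at 0 Gy, 37.6% of genes called higher and 40.2% lower. Recovery in that comparison may therefore differ from the simulated one.

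The members and all gene lists were chosen with earlier results of these data known. Values in every library were given for both regulators, the targets NQO1, HMOX1, GCLC, GCLM, SLC7A11, TXNRD1 and SRXN1, members with a mean log2 difference of at least 1 in size called in all 3 conditions, members listed at 0 in some libraries and at 1 or more in others, and members called by dose, time or interaction. MGST2 and SOD2 fall under the size rule. Other members were given by ranges. Of the further genes, the 3 largest rises and falls were named by rule, and CSF1, AMPD2, SLC3A2, the NRF2 partners, the further genes called by dose or time, and HMOX1 by dose were named after their values were seen.

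Promoter windows were read from RefSeq (GRCh38.p14), a build other than that of the FPKM values, which were joined to it by gene symbol alone. Shared sequence was measured as the share of the 50-base windows of a gene's longest coding transcript in GENCODE that occur in transcripts of other genes. The alternatives tried were a pseudocount of 0.1, no filter and a filter at FPKM 5, TPM rescaling with and without MIR622, quantile normalization, eBayes without a trend, a replicate block, only the libraries compared, and each library left out in turn.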

Additional observations from a re-analysis of the deposited data

Results flagged for a closer look

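The change from 30 h to 48 h at 4 Gy differed between populations for 2 members by the test of that difference. MGST1 differed by -0.72 on the log2 scale (limma, SE 0.129, adjusted p = 0.0267), with 419 and 451 FPKM at 30 h and 441 and 417 at 48 h in degron (++) against 58.2 and 68.1 and then 96.5 and 109 in degron (−). PRDX6 differed by -0.26 (SE 0.057, adjusted p = 0.0476), with 463 and 465 and then 459.9 and 456 FPKM in degron (++) against 161 and 160.3 and then 182 and 198 in degron (−). In both genes the degron (−) pair was higher at 48 h and the degron (++) pairs overlapped or lay within a few FPKM of each other. PRDX2 (-0.46, adjusted p = 0.0526), TXNRD1 (-0.22, 0.0526), TKT (-0.29, 0.0615) and GSR (-0.20, 0.0693) had the same sign and missed the threshold. As given above, the calls of MGST1 and PRDX6 were lost when most single libraries were left out. The direction was shared widely. Of all genes called between populations at 0 Gy, 78.3% had a time difference in degron (−) with the sign toward degron (++).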

How the results depend on the processing

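The population differences kept their direction and call in 2259 of 2301 recomputed values over 110 called differences, with 37 calls lost and 5 values reversed, and the counts of members called stayed within 1.5 times. The reversed values were GSS under TPM rescaling (-0.04 at 0 Gy and -0.17 at 30 h, the latter also -0.05 without MIR622) and, under quantile normalization, GSTP1 at 30 h (-0.00) and PRDX1 at 48 h with 4 Gy (-0.02). A filter at FPKM 5 removed the genes of 9 of the 110 differences.

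The dose and time calls were less stable, with 78 of 210 values losing the call, as were the 2 differences of time between populations, with 27 of 42. The dose count in degron (++), 1, became 0 with a pseudocount of 0.1, no filter, quantile normalization, TPM rescaling with or without MIR622, a replicate block, or only the libraries compared. The dose count in degron (−), 3, became 5 under quantile normalization, 1 under TPM rescaling and 0 with only the libraries compared. The time count in degron (++), 1, became 2 without a filter and 0 under TPM rescaling with or without MIR622 and with only the libraries compared. The time count in degron (−), 5, became 3 under TPM rescaling and 0 with only the libraries compared. The count of members whose time difference differed between populations, 2, became 4 with a pseudocount of 0.1 or a filter at FPKM 5, 1 under TPM rescaling or eBayes without a trend, and 0 with only the libraries compared. The count of members whose dose response differed between populations was 0 under every alternative. With 1 library left out in turn, the other counts ranged over 0 to 1, 0 to 3, 0 to 1, 1 to 5 and 0 to 4. With only the libraries compared, fewer libraries estimate the spread, and the causes of the other changes were not tested.

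The replicate numbers gave no clear sign of pairing the samples, although weak correlations cannot exclude it. Same-numbered libraries had deviations that correlated at -0.038 to 0.122 over 15 pairs of groups (median 0.040), and 2 pairs were over 0.1. A replicate block kept all 110 population calls, 8 of 10 dose or time calls and 1 of 2 differences of time between populations, and under it the dose count was 0 in degron (++) and 2 in degron (−). No count of reads was at hand, so no limit of detection could be given for the genes listed at 0.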
